A study of Homo sapiens with 6 samples.

Results

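The Kruppel-like factors examined here are 10 zinc finger transcription factors, KLF2, KLF3, KLF4, KLF5, KLF6, KLF7, KLF9, KLF10, KLF11 and KLF13. They were taken from the deposited expression table by gene name, and all 10 were found among its 31164 genes. The tested cells carried a hairpin RNA against the chromatin protein HMGA1 (shHMGA1, 3 libraries, genotype given as HMGA1 knockdown), and the comparison cells carried a control hairpin (shNC, 3 libraries, genotype given as WT). Both sets are labelled HT29, a human colorectal cancer cell line, grown in serum-containing medium with no further treatment, and poly-A RNA was sequenced. The labels describe no separate cultures, clones or hairpin sequences, so the p-values rest on how far these libraries scatter, which could be technical scatter alone. Values are FPKM, which divide a gene's fragments by its transcript length and by the fragments mapped in the library, so levels can be set side by side between genes.

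Kruppel-like factors share a C-terminal block of zinc fingers that binds GC-rich and CACCC-type DNA elements, and they differ in the protein partners recruited by the rest of the molecule. KLF2, KLF4, KLF5, KLF6 and KLF7 are known mainly as activators, KLF3 recruits the corepressor CtBP, and KLF9, KLF10, KLF11 and KLF13 recruit SIN3. In the intestine, KLF5 is known for its expression in dividing crypt cells and KLF4 for its expression in the differentiated cells above them. Several members, KLF2, KLF4, KLF6 and KLF10 among them, can be induced within minutes by serum or stress, as FOS and EGR1 are.

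HMGA1 was at 465, 565 and 508 FPKM in the shHMGA1 libraries, against 785, 809.6 and 854 FPKM in the shNC libraries. The knockdown level was 62.8% of the control level (log2 fold change -0.67, SE 0.08, adjusted p = 0.0018), so the knockdown was partial. Of 10 colon epithelium markers, EPCAM, KRT8, KRT18, CDH1 and CDX2 were clearly present, and KRT20 was low, at 0.84 to 1.14 FPKM. VIL1, CDX1, LGALS4 and CEACAM5 stood between 0 and 0.21 FPKM in all 6 libraries. The label HT29 is thus only in part borne out by these markers. The epithelial markers summed to 2326 to 2490 FPKM in shHMGA1 and 2532 to 2779 FPKM in shNC, with EPCAM called higher (log2 fold change 0.35) and KRT18 called lower (-0.25). Fibroblast markers summed to 7.56 to 12.2 FPKM in shHMGA1 and 11.1 to 11.8 FPKM in shNC, most of it COL1A1, with COL1A2 and DCN at or near 0. Blood cell markers summed to 1.67 to 2.06 FPKM in shHMGA1 and 1.34 to 1.64 FPKM in shNC, most of it the macrophage marker CD68 (1.53, 2.00 and 2.03 FPKM in shHMGA1, 1.33 to 1.64 FPKM in shNC), while PTPRC did not exceed 0.01 FPKM in either group. Endothelial markers, VWF and CLDN5 among them, summed to at most 0.25 FPKM in shHMGA1 and in shNC. The part of such transcripts in the results was not tested. The knockdown libraries were not alike in their immediate early genes, the rapid transcriptional responders: FOS stood at 424 FPKM in shHMGA1 replicate 1, at 40.95 in replicate 2 and at 210 in replicate 3, against 408 to 422 FPKM in shNC. Mitochondrially encoded transcripts took 12.5%, 8.94% and 8.50% of FPKM in shHMGA1 replicates 1 to 3, against 13.5%, 11.4% and 11.9% in shNC.

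Kruppel-like factor RNA was lower in the knockdown. KLF6, KLF9, KLF4, KLF5 and KLF13 fell, none of the 10 rose, and the other 5 had log2 fold changes below 0 without passing the test. In 9 of the 10 every shHMGA1 library lay below every shNC library, KLF7 being the exception. A gene was called when limma's adjusted p, over the 14304 genes averaging 1 FPKM or more, was under 0.05. All 10 members averaged 1 FPKM or more and so were tested. Of all genes tested 28.4% were called, 12.3% lower and 16.1% higher. Groups with every shHMGA1 library below every shNC library occurred in 20.5% of all genes tested. The median log2 fold change of the 10 was -0.40, against 0.02 for all genes tested. Together the 10 summed to 166, 143 and 160 FPKM in shHMGA1, against 225, 228 and 217 FPKM in shNC. Since whole cultures were sequenced, less RNA per cell and fewer cells with that RNA cannot be told apart. The number called was 3 when shNC replicate 1 or shNC replicate 2 was left out. In those fits 1001 and 952 of all genes tested were called lower, against 1758 with all 6 libraries.

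**Figure D1:**
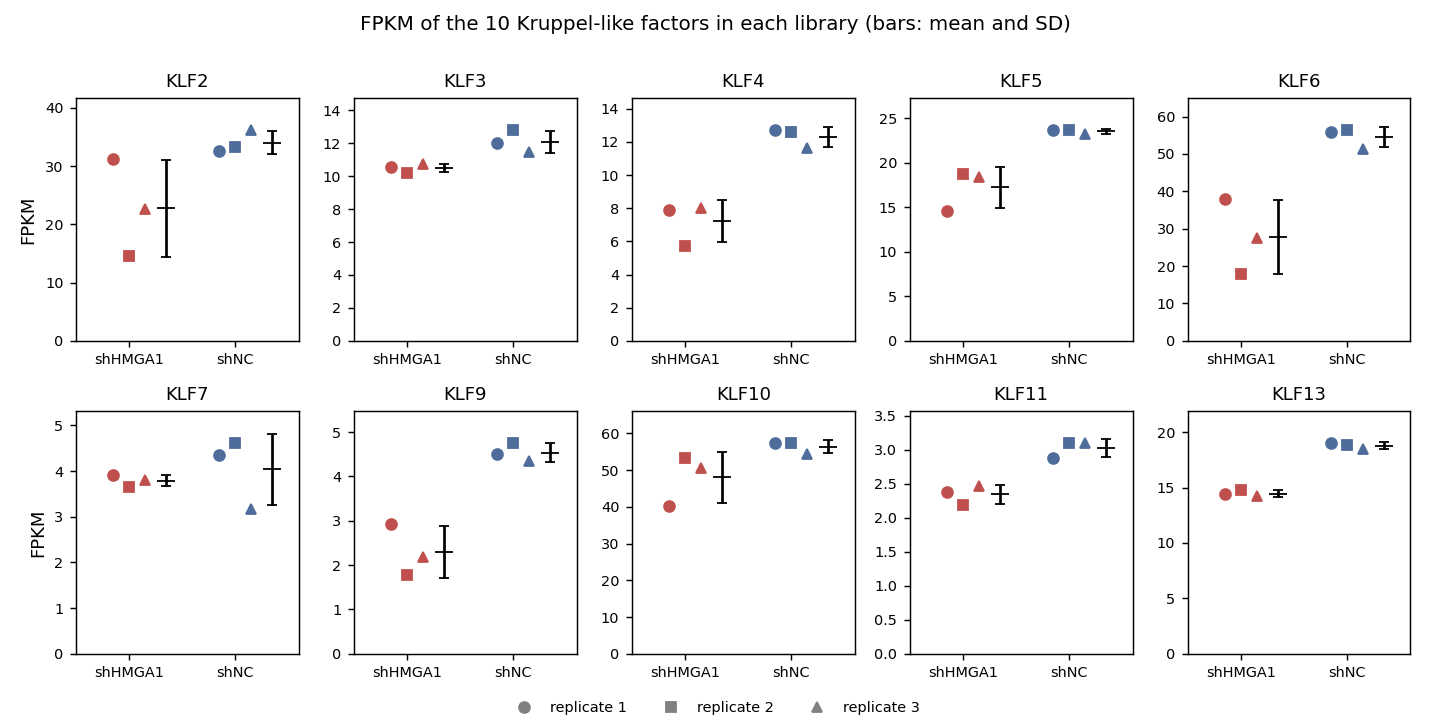
FPKM of each of the 10 Kruppel-like factors (y axes, starting at 0), with 3 shHMGA1 libraries left of 3 shNC libraries in each panel, symbols for replicates, and bars for mean and SD. In every panel but that of KLF7 the shHMGA1 points lie below the shNC points, and those of KLF2 and KLF6 are spread widely.

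By mean FPKM, the order of levels was much the same in both groups. In shHMGA1 the highest were KLF10 at 48.0 ± 6.86, KLF6 at 27.8 ± 9.97 and KLF2 at 22.8 ± 8.34 FPKM, and in shNC KLF10 at 56.3 ± 1.79, KLF6 at 54.5 ± 2.77 and KLF2 at 34.03 ± 1.96 FPKM (SD, n = 3 each). KLF10 and KLF6 overlapped in shNC, whereas in shHMGA1 every KLF10 value was above every KLF6 value. KLF5 and KLF13 followed by mean in both groups. In shHMGA1 replicate 2, however, KLF5 (18.7 FPKM) was above KLF6 (17.9 FPKM) and KLF2 (14.6 FPKM), and KLF13 (14.8 FPKM) was above KLF2. KLF6 and KLF2 also overlapped in shHMGA1, and were apart in shNC. Of the next pair, KLF3 exceeded KLF4 in each shHMGA1 library (10.2 to 10.7 against 5.75 to 8.03 FPKM), while in shNC they overlapped (11.5 to 12.8 against 11.6 to 12.7 FPKM). At the low end KLF9 and KLF11 overlapped in shHMGA1, at 2.29 ± 0.578 and 2.34 ± 0.139 FPKM, and were apart in shNC, at 4.54 ± 0.207 and 3.02 ± 0.13 FPKM. KLF7 and KLF9 overlapped in shNC. These orders are descriptions and no difference between members was tested.

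Promoter sequences from RefSeq (GRCh38.p14), 250 bases before to 50 after an annotated start, were matched by symbol for 8 of the 10 members, with 13 windows in all. 4 are shown because they belong to the members whose RNA was lowest relative to shNC in shHMGA1 replicate 2 and have a single annotated window. Capitals mark GGGCGG on either strand, the GC box that Kruppel-like and SP factors bind, and, in KLF2, a MEF2 site.
KLF2, chr19:16324576-16324875, plus strand: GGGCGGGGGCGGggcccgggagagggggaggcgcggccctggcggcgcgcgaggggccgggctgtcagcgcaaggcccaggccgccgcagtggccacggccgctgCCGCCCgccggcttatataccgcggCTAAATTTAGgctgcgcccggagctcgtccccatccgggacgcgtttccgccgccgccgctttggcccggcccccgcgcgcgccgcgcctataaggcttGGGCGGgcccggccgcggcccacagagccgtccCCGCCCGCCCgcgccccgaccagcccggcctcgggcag
KLF4, chr9:107489720-107490019, minus strand: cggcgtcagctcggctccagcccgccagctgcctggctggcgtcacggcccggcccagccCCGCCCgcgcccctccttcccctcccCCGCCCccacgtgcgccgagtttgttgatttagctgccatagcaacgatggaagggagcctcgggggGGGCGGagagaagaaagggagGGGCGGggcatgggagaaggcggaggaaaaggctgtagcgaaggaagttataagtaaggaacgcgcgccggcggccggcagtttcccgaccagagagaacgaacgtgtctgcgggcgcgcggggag
KLF6, chr10:3785160-3785459, minus strand: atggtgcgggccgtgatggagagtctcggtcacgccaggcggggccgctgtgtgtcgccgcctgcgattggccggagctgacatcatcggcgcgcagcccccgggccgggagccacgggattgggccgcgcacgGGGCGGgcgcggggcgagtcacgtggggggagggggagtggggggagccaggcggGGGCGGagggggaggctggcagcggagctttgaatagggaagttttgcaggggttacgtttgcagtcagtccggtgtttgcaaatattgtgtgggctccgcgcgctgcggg
KLF9, chr9:70414608-70414907, minus strand: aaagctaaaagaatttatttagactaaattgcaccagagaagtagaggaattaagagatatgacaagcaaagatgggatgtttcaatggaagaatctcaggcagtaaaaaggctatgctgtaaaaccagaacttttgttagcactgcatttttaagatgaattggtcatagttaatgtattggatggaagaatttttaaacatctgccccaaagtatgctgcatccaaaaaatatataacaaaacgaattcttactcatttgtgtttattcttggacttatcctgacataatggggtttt

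The windows differed in base composition. The KLF2, KLF6 and KLF4 windows held 80.7%, 70.7% and 69.0% G and C, and the KLF9 window 32.7%, against a median of 58.7% over 35116 RefSeq windows, of which 2.59% were at or below the KLF9 value. GGGCGG was found in 8 of the 13 member windows, in 7 of the 8 genes, and in 45% of all windows. It had 6 matches in KLF2, some of them overlapping, 4 in KLF4, 2 in KLF6 and none in KLF9. CCACCC, the CACCC-type element, was found in 2 of the 13 and in 34.3% of all windows, and its matches can overlap those of GGGCGG. A MEF2 site was found in 1 of the 13 windows, that of KLF2, and in 2.99% of all. The CArG box, which serum response factor binds, was found in 1 window, of KLF7 (1.29% of all), TGACGTCA in 1, of KLF11 (1.85% of all), and TATAAA in 1, of KLF5 (11.5% of all). All motifs were searched on both strands. Such matches are descriptions of the letters, and genes with several annotated starts have several windows.

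Among the activators, KLF6, a ubiquitous factor studied in liver fibrosis and as a tumour suppressor, had the lowest log2 fold change of the 10 in the limma fit. Its RNA was at 37.9, 17.9 and 27.5 FPKM in the shHMGA1 libraries, against 55.8, 56.5 and 51.4 FPKM in the shNC libraries. The groups did not overlap, and the 3 knockdown libraries differed far more among themselves than the controls did. The log2 fold change was -1.01 (SE 0.23, 95% interval -1.55 to -0.47, adjusted p = 0.0185), and 1.19% of all genes tested had a lower one. In percent of the mean shNC level, however, KLF6 (50.9%) and KLF9 (50.6%) were alike. KLF6 (ENSG00000067082.15) lies on chromosome 10 from 3775996 to 3785281 on the minus strand in GENCODE 29. Leaving out shHMGA1 replicate 3, shNC replicate 1 or shNC replicate 2 ended the call (adjusted p = 0.0554, 0.0607 and 0.0608), as did testing all genes with no filter (0.0677), with log2 fold changes from -1.26 to -0.74 over the 6 fits that left out a library.

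KLF4, best known as a reprogramming factor, was at 7.90, 5.75 and 8.03 FPKM in shHMGA1, against 12.7, 12.6 and 11.6 FPKM in shNC. All knockdown values were well below the controls, and shHMGA1 replicate 2 was the lowest. It fell to 58.7% of the control level (log2 fold change -0.70, SE 0.12, adjusted p = 0.0066) and stayed called with any 1 library left out. The gene (ENSG00000136826.15) lies on chromosome 9 from 107484852 to 107490482.

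KLF5, the crypt-associated factor, had 14.6, 18.7 and 18.4 FPKM in shHMGA1 and 23.7, 23.7 and 23.2 FPKM in shNC. Here shHMGA1 replicate 1 was the lowest library, and the controls were close together. It fell by 0.44 on the log2 scale (SE 0.09, adjusted p = 0.0151) and was no longer called without shNC replicate 1 or shNC replicate 2 (adjusted p = 0.054 and 0.0523). KLF5 (ENSG00000102554.14) is on chromosome 13 from 73054976 to 73077542.

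KLF2, which responds to fluid flow in endothelium and keeps T cells quiescent, was at 31.3, 14.6 and 22.6 FPKM in shHMGA1, against 32.5, 33.3 and 36.2 FPKM in shNC. Replicate 1 of the knockdown was next to the lowest control, and replicate 2 was far below it. Its log2 fold change of -0.62 (SE 0.23, 95% interval -1.17 to -0.07, adjusted p = 0.0881) did not pass. It passed without shHMGA1 replicate 1 (-0.87, adjusted p = 0.0131), and without shHMGA1 replicate 2 it was -0.34 (adjusted p = 0.114). Processed pseudogenes carry its sequence, and KLF2P1 was at 0.7, 0.32 and 0.36 FPKM in shHMGA1 against 0.40 to 0.42 FPKM in shNC, so a small part of its reads could be placed there (KLF2P1 was named after its values were seen).

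KLF7, which in mouse is needed for the outgrowth of neurons, was at 3.91, 3.66 and 3.80 FPKM in shHMGA1 and 4.35, 4.62 and 3.16 FPKM in shNC. The groups overlapped because shNC replicate 3 was the lowest of all 6. The log2 fold change was -0.06 (SE 0.12, 95% interval -0.35 to 0.23, adjusted p = 0.733), and it was 0.02 without shNC replicate 2.

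KLF9, a SIN3-binding factor induced by glucocorticoids and thyroid hormone, was at 2.92, 1.78 and 2.18 FPKM in shHMGA1, against 4.50, 4.76 and 4.35 FPKM in shNC. Each knockdown library was clearly below the controls, with replicate 2 again the lowest. It fell to 50.6% of the control level (log2 fold change -0.76, SE 0.13, adjusted p = 0.0075). The call held with any 1 library left out. At such a level the added constant of 1 FPKM shrinks the fold change: with 0.1 it was -0.98 and with 5 it was -0.39, both called. KLF9 (ENSG00000119138.4) lies on chromosome 9 from 70384597 to 70414624.

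KLF13, which in T lymphocytes binds the promoter of the chemokine gene CCL5, had 14.4, 14.8 and 14.2 FPKM in shHMGA1 and 19.0, 18.8 and 18.4 FPKM in shNC. Both groups were tight and far apart. It fell by 0.36 on the log2 scale (SE 0.05, adjusted p = 0.0037), which was the smallest adjusted p of the 10, and it was called in each fit that left out a library. The gene (ENSG00000169926.11) is on chromosome 15 from 31326855 to 31435665.

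KLF10 and KLF11, both known as genes that TGF-beta induces early, did not pass. KLF10 was at 40.3, 53.3 and 50.5 FPKM in shHMGA1, against 57.3, 57.4 and 54.3 FPKM in shNC (log2 fold change -0.24, SE 0.10, 95% interval -0.47 to 0.003, adjusted p = 0.124). In shHMGA1, replicate 1 was the farthest from the controls, and without it the log2 fold change was -0.12 (adjusted p = 0.137). KLF11 was at 2.38, 2.19 and 2.46 FPKM in shHMGA1, against 2.87, 3.09 and 3.10 FPKM in shNC (log2 fold change -0.27, SE 0.09, adjusted p = 0.0591). Its groups were apart, but its low level leaves the size uncertain on this scale, and an exon of another gene lies on the opposite strand.

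KLF3, the CtBP-dependent repressor, was at 10.6, 10.2 and 10.7 FPKM in shHMGA1, against 12.0, 12.8 and 11.5 FPKM in shNC. The difference was small and the groups did not overlap (log2 fold change -0.19, SE 0.06, adjusted p = 0.0637). It passed with quantile scaling (adjusted p = 0.0491) and median-of-ratios scaling (adjusted p = 0.0434). Exons of KLF3 overlap the antisense gene KLF3-AS1, and reads of the pair may not be separable. The antisense RNA itself was at 0.26, 0.34 and 0.21 FPKM in shHMGA1, against 0.46, 0.46 and 0.59 FPKM in shNC (named after its values were seen).

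**Figure D2:**
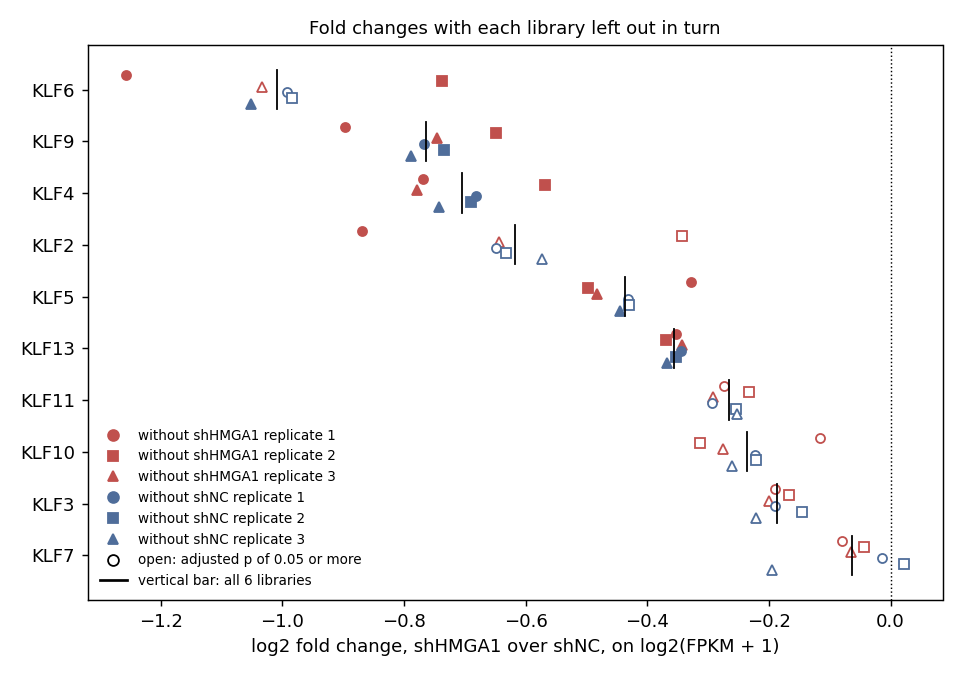
Log2 fold change of each Kruppel-like factor on log2(FPKM + 1) (x axis) with each of the 6 libraries left out in turn; filled symbols have an adjusted p under 0.05, and vertical bars give the value with all libraries. KLF4, KLF9 and KLF13 are filled throughout, and the points of KLF6 and KLF2 are the most widely spread.

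A two-sided exact permutation test over the 6 libraries gave p = 0.1 for each member other than KLF7, the lowest p this design can reach, and p = 0.8 for KLF7. The authors' deposited table, whose test is not described, gave log2 fold changes below 0 for all 10, and 8 of them had an adjusted p under 0.05, where 16.7% of its 16509 genes with an adjusted p were called lower and 17.5% higher. In the authors' deposited table KLF2 (log2 fold change -0.48, adjusted p 0.205) and KLF7 (-0.10, adjusted p 0.492) were the members not called, while KLF3 (adjusted p 0.0354), KLF10 (adjusted p 0.0104) and KLF11 (adjusted p 0.00554) were. The lowest log2 fold change there was that of KLF9 (-0.996), followed by KLF6 (-0.876). On its normalized count scale, the authors' deposited table listed the members at levels from 237 (KLF11) to 3661 (KLF10) in shHMGA1 and from 320 (KLF11) to 5237 (KLF6) in shNC, KLF11 being the lowest in both groups. Counts, unlike FPKM, are not divided by transcript length, so the 2 scales need not rank genes alike. By mean FPKM in shHMGA1, KLF9 (2.29) was slightly below KLF11 (2.34).

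The members fell into different patterns among the knockdown libraries. KLF2 stood at 91.8%, 42.8% and 66.4% of the mean shNC level in shHMGA1 replicates 1 to 3, and KLF6 at 69.4%, 32.9% and 50.5%. KLF9 (64.4%, 39.2% and 48.1%) and KLF4 (64.2%, 46.7% and 65.3%) were also lowest in replicate 2. In KLF5 (62.1%, 79.6% and 78.0%) and KLF10 (71.5%, 94.6% and 89.7%) replicate 1 was the lowest instead. KLF13 (76.8%, 78.6% and 75.6%) and KLF3 (87.4%, 84.4% and 88.7%) hardly differed between the 3. Replicate 2 was the lowest knockdown library in 7 of 10 members and replicate 1 in 2, where over all genes tested the shares were 32.8% and 40.9%. The coefficient of variation in shHMGA1 was 36.6% for KLF2, 35.9% for KLF6 and 1.95% for KLF13, against 5.75%, 5.08% and 1.61% in shNC.

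By their median, the immediate early genes had the replicate order of KLF2, KLF6, KLF9 and, within a narrow range, KLF7: highest in replicate 1 and lowest in replicate 2. In replicate 1 that median was close to the mean shNC level (96.6%), as was KLF2 (91.8%). KLF6 (69.4%) and KLF9 (64.4%) were farther below it there. Of 14 listed, 3 were called lower (12.3% of all genes tested), 2 with shHMGA1 replicate 3 or any shNC library left out, none was called higher, and replicate 2 was the lowest knockdown library in 12. The median of the 14 stood at 96.6%, 25.2% and 59.8% of the mean shNC level in shHMGA1 replicates 1 to 3. IER3, a stress-induced survival factor, was at 214, 161 and 178 FPKM in shHMGA1 against 295 to 324 FPKM in shNC (log2 fold change -0.75, adjusted p = 0.0033), and the AP-1 subunit FOSL1 at 32.0, 33.2 and 31.7 FPKM against 45.8 to 46.3 FPKM in shNC (-0.50, adjusted p = 0.000981). ATF3, a stress-induced factor, was at 42.4, 14.01 and 24.3 FPKM in shHMGA1 against 52.6 to 62.6 FPKM in shNC (-1.20, adjusted p = 0.0365), a call that ended when shHMGA1 replicate 3 or any shNC library was left out (adjusted p = 0.104 at most), and also with no filter, no trend or robust eBayes. EGR1, a zinc finger factor named after its values were seen, was at 223, 44.96 and 117 FPKM in shHMGA1, against 227 to 236 FPKM in shNC (-1.12, adjusted p = 0.133). Without shHMGA1 replicate 1, 10 of the 14 were called lower, against 13.8% of all genes in that fit. The part that the state of these rapid responders has in the values of KLF2, KLF6 and KLF9 was not tested.

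**Figure D3:**
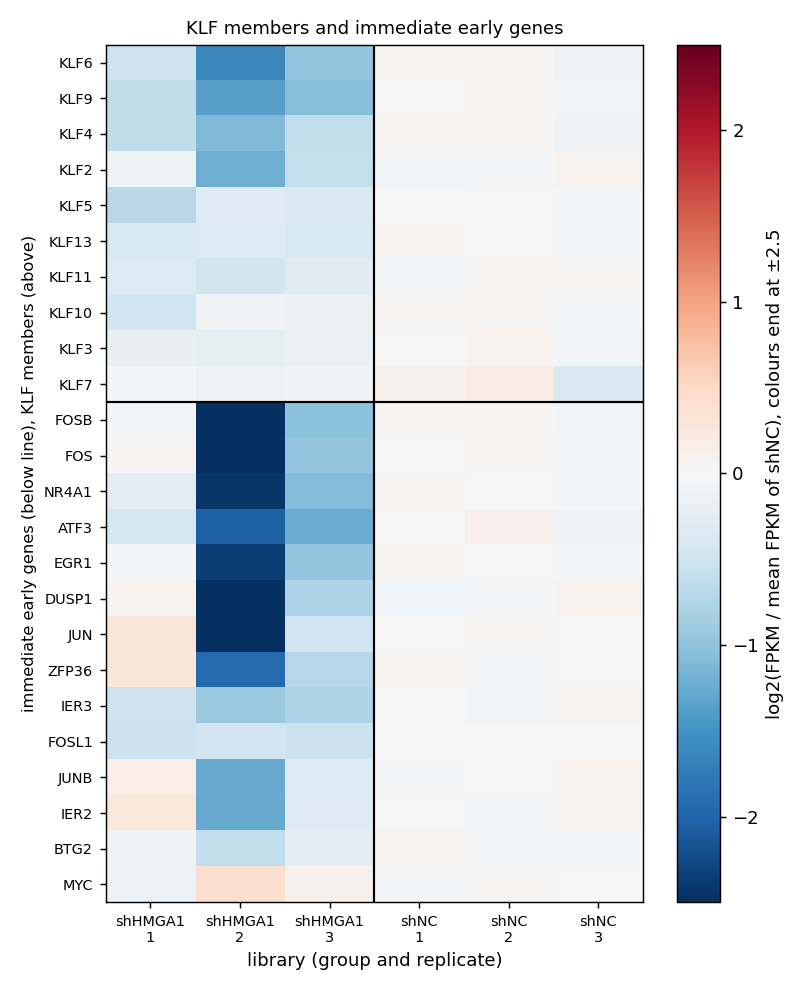
Colour gives log2 of FPKM over the mean FPKM of shNC, for the Kruppel-like factors (upper block) and the immediate early genes (lower block) in 3 shHMGA1 libraries (left) and 3 shNC libraries (right). The blue of shHMGA1 replicate 2 is deepest in FOSB, FOS, JUN and DUSP1 and is seen in KLF6, KLF9, KLF2 and KLF4, while KLF13 is evenly pale in all 3 knockdown libraries.

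The rest of the family and the related SP factors did not share this direction throughout. Of 7 other KLF genes in the table, 2 reached the tested level. KLF12, a CtBP-binding repressor, was at 2.51, 1.97 and 2.03 FPKM in shHMGA1 against 3.24, 3.07 and 2.83 FPKM in shNC (log2 fold change -0.36, SE 0.10, adjusted p = 0.0425), a call that ended with any library but shHMGA1 replicate 1 left out (adjusted p = 0.138 at most), and also without a filter, with quantile scaling and with the replicate number as a block (adjusted p = 0.0614). KLF16, a SIN3-binding factor, was at 22.2, 24.3 and 22.9 FPKM in shHMGA1 and 22.3, 20.6 and 24.0 FPKM in shNC, with overlapping groups (0.05, SE 0.07, adjusted p = 0.612). KLF8, another CtBP-binding member, was at 0.27, 0.26 and 0.30 FPKM in shHMGA1 and 0.36, 0.39 and 0.43 FPKM in shNC, and KLF15, of glucose and amino acid metabolism, at 0.51 to 0.70 and 0.78 to 0.95 FPKM, both below the level tested. KLF14 (0.17 to 0.22 FPKM in shHMGA1 and 0.18 to 0.33 FPKM in shNC), the red-cell factor KLF1 (at most 0.17 FPKM in shHMGA1, listed at 0 in shNC) and KLF18 (at most 0.02 FPKM in both) were close to 0.

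SP5, a target and effector of Wnt signalling, fell, at 0.79, 1.08 and 1.10 FPKM in shHMGA1 against 2.61, 2.08 and 2.43 FPKM in shNC (log2 fold change -0.76, SE 0.12, adjusted p = 0.0057). It was the 1 called SP factor of 6 tested, where 28.4% of all genes tested were called. At its low level the added constant sets the size, which was -1.19 with 0.1 FPKM and -0.30 with 5 FPKM, both called. SP3, at 44.4, 43.8 and 47.5 FPKM in shHMGA1 and 40.7, 41.1 and 36.0 FPKM in shNC, was higher in every knockdown library without passing (0.20, adjusted p = 0.0607). It passed when the test was limited to genes averaging 5 FPKM or more (adjusted p = 0.0481). SP1, the broadly expressed member, had a log2 fold change of 0.002 (adjusted p = 0.987), SP2 0.16 (adjusted p = 0.133), SP4 -0.14 (adjusted p = 0.485) and SP6, of skin and tooth, 0.21 (adjusted p = 0.0841). SP6 passed without shHMGA1 replicate 2 (adjusted p = 0.0363). SP8 was at 0.09 to 0.33 FPKM in shHMGA1 and 0.18 to 0.32 FPKM in shNC, and SP9 at 0.52 to 0.64 and 0.42 to 0.59 FPKM.

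**Figure D4:**
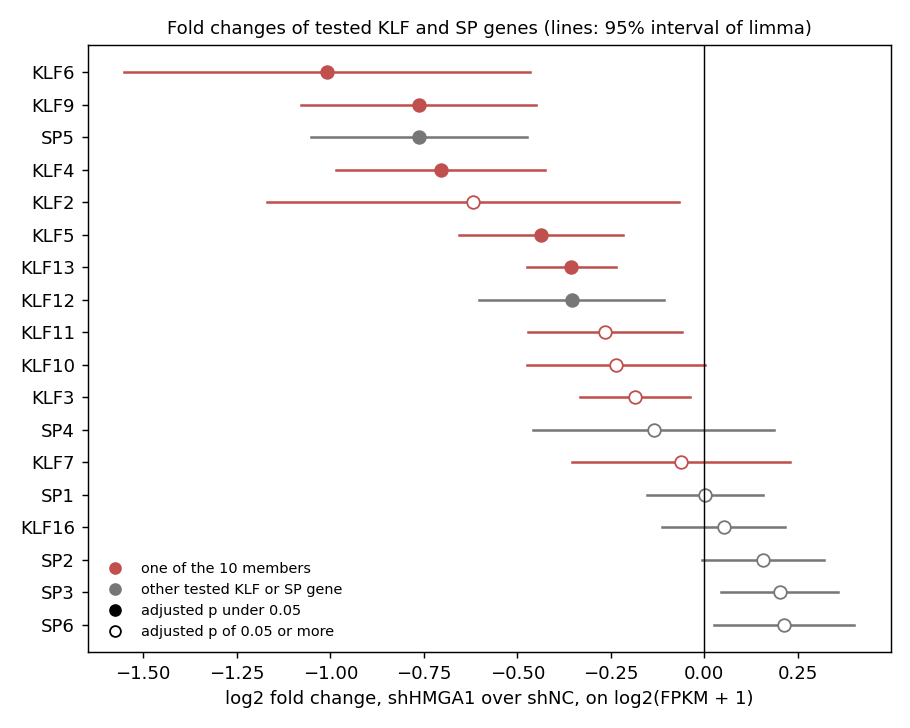
Log2 fold change of every tested KLF and SP gene on log2(FPKM + 1) (x axis), with lines for the 95% interval and filled points for an adjusted p under 0.05. The 10 members lie left of 0, KLF16, SP2, SP3 and SP6 lie right of it without being called, and SP1 is at 0.002, a sign that turned with quantile or median-of-ratios scaling.

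Genes that act on these factors were called in both directions. The 2 calls among 10 co-regulators (median log2 fold change 0.13) and the 2 among 9 genes of protein turnover (median 0.08) were no larger a share than the 28.4% called among all genes tested (median 0.02). Among the 10 co-regulators, the corepressor CTBP1, the partner of KLF3, was higher (107 ± 5.05 FPKM in shHMGA1, 94.4 ± 3.37 FPKM in shNC; log2 fold change 0.18, adjusted p = 0.0416), the deacetylase HDAC1 was lower (229 ± 2.91 and 258 ± 4.75 FPKM; -0.17, adjusted p = 0.0178) and 8 were not called, SIN3A and SIN3B among them. The call of CTBP1 ended with any library but shHMGA1 replicate 1 left out (adjusted p = 0.134 at most), and with quantile or median-of-ratios scaling, no filter or no trend. That of HDAC1 ended when shHMGA1 replicate 3, shNC replicate 1 or shNC replicate 2 was dropped (adjusted p = 0.0764 at most). In the list for protein turnover, the ubiquitin ligase SMURF2 fell to 60.7 ± 3.59 FPKM in shHMGA1, against 96.9 ± 3.13 FPKM in shNC (-0.67, adjusted p = 0.000886). The ligase SIAH1 rose, with 17.6 ± 0.878 FPKM in shHMGA1 and 12.9 ± 0.492 FPKM in shNC (0.42, adjusted p = 0.004). Both kept their calls with any library left out, and WWP1, the ligase best known for KLF5, was not called (-0.20, adjusted p = 0.0576; named after its values were seen).

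The kinase ERK5 and its MEF2 factors drive KLF2 and KLF4 in endothelium. Of 8 tested genes of this input, 2 fell and 1 rose (median log2 fold change -0.10), where 28.4% of all genes tested were called. MEF2C was at 23.7, 14.7 and 19.8 FPKM in shHMGA1, against 9.07, 12.6 and 11.9 FPKM in shNC (log2 fold change 0.73, adjusted p = 0.0244), MEF2D at 8.12 ± 0.13 and 10.1 ± 0.394 FPKM (-0.28, adjusted p = 0.0149), and the kinase MAP3K2 at 6.08 ± 0.326 and 9.16 ± 1.32 FPKM (-0.51, adjusted p = 0.0131). None of the 3 calls held without shHMGA1 replicate 3 or without shNC replicate 1 (adjusted p from 0.0508 to 0.0775), that of MEF2C also ended without shNC replicate 3, with the replicate number as a block or with no filter (adjusted p = 0.0565, 0.0508 and 0.0819), and those of MEF2D and MAP3K2 when shNC replicate 2 was dropped (adjusted p = 0.0609 and 0.0507). ERK5 itself (MAPK7) was not called.

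Of 6 genes of TGF-beta and SMAD signalling, the input of KLF10 and KLF11, 2 fell and none rose (median log2 fold change -0.15; 12.3% of all genes were called lower). The receptor TGFBR2 was at 6.78, 6.56 and 6.73 FPKM in shHMGA1, against 11.6, 12.0 and 10.7 FPKM in shNC (log2 fold change -0.69, SE 0.07, adjusted p = 0.0012). SMAD7, the feedback inhibitor, was at 2.61 ± 0.191 and 3.53 ± 0.0551 FPKM (-0.33, adjusted p = 0.0266), a call that ended with any library but shHMGA1 replicate 1 left out, with no filter and with the replicate number as a block (adjusted p = 0.0608). Of 5 genes of steroid and thyroid hormone input to KLF9, 1 fell and 1 rose (median log2 fold change -0.17). Of all genes tested, 12.3% were called lower and 16.1% higher. The glucocorticoid receptor NR3C1 was lower, at 2.71 ± 0.367 FPKM in shHMGA1 and 3.90 ± 0.14 FPKM in shNC (-0.41, adjusted p = 0.0224), a call that likewise survived the loss of shHMGA1 replicate 1 but of no other library (adjusted p = 0.083 at most), and ended with no filter. FKBP5, a glucocorticoid-induced chaperone partner, rose, with 48.2 ± 0.876 FPKM in shHMGA1 and 36.3 ± 1.33 FPKM in shNC (0.40, adjusted p = 0.00234).

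Reported targets of KLF4 include CDKN1A, which it activates, and several proliferation genes that it represses. Of 8 tested, 4 rose and 2 fell (median log2 fold change 0.17), where 16.1% of all genes were called higher and 12.3% lower. The polyamine enzyme ODC1 rose, with 352 ± 5.07 FPKM in shHMGA1 and 254 ± 10.9 FPKM in shNC (log2 fold change 0.47, adjusted p = 0.0013), as did the G1/S cyclin CCNE1, with 23.3 ± 2.06 and 17.6 ± 1.07 FPKM (0.39, adjusted p = 0.0131). CDKN1A, a cell cycle inhibitor and also a reported target of KLF6, fell to 114 ± 13.3 FPKM in shHMGA1, against 150 ± 4.36 FPKM in shNC (-0.41, adjusted p = 0.0121). The cyclin CCND1, a reported target of both KLF4 and KLF5, was at 121 ± 8.99 and 145 ± 3.02 FPKM (-0.25, adjusted p = 0.0222) and lost its call with any shNC library dropped (adjusted p = 0.0808 at most) or with no filter. CCNE1 lost its call when shNC replicate 1 was dropped (adjusted p = 0.0522). The 4 that rose were 1 without shNC replicate 1 and 2 without shNC replicate 2 or shHMGA1 replicate 3.

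Of 9 reported targets of KLF5, 3 fell and 2 rose, and none of the rises held when shHMGA1 replicate 3, shNC replicate 1 or shNC replicate 2 was dropped. The median log2 fold change of the 9 was -0.06, and of all genes 12.3% were called lower and 16.1% higher. The 2 that rose and CCND1 are also on the list of KLF4 targets, so the counts of these lists are not separate. The growth factor PDGFA was at 5.04 ± 1.1 FPKM in shHMGA1 and 8.33 ± 0.951 FPKM in shNC (log2 fold change -0.64, adjusted p = 0.017; 0.0626 without shNC replicate 1 and 0.0593 with no filter), and the receptor EGFR at 13.2 ± 1.72 and 20.6 ± 0.667 FPKM (-0.61, adjusted p = 0.0041). BIRC5, an inhibitor of apoptosis used in mitosis, was higher, at 143 ± 8.09 and 120 ± 4.96 FPKM (0.25, adjusted p = 0.0182; 0.0668, 0.0609 and 0.071 with shHMGA1 replicate 3, shNC replicate 1 or shNC replicate 2 dropped). Among the KLF2 targets of endothelial cells, NOS3, the endothelial nitric oxide synthase, was at 30.8 ± 5.43 FPKM in shHMGA1 and 26.1 ± 2.40 FPKM in shNC. It did not pass with all libraries (0.22, adjusted p = 0.26) but did without shHMGA1 replicate 1 (0.37, adjusted p = 0.0198). For KLF6, PLAU, which activates plasminogen, was not called (-0.16, adjusted p = 0.282). CDKN1A was the 1 called of 3 tested, where 28.4% of all genes tested were called. The lists hold genes with many regulators, so their members' values say nothing of KLF activity on their own.

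Genes most like a member in profile were found by the root mean square difference of log2(FPKM + 1), centred on each gene's mean over the 6 libraries, among 10319 genes averaging 5 FPKM or more. For KLF6, the called member with the lowest log2 fold change, they were DEPP1, a FOXO target (difference 0.09), INSIG2, a membrane protein of sterol sensing (0.13), and the nuclear protein CSRNP1 (0.13). DEPP1 was at 4.34, 1.74 and 3.38 FPKM in shHMGA1 against 7.43 to 7.81 FPKM in shNC. For KLF13, the called member with the highest log2 fold change, they were the kinase CLK3 (0.017), the golgin GOLGA5 (0.022) and the small GTPase RAP2A (0.024). CLK3 was at 48.3, 48.2 and 48.0 FPKM in shHMGA1 against 62.0 to 63.3 FPKM in shNC. With so many genes and 6 libraries, close matches are to be found for any smooth profile.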

How the data were processed

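Poly-A RNA of 6 libraries was sequenced on an MGI-SEQ instrument, per the labels' protocols, with genome build hg38, per the submitters' processing notes. Per the file headers, the deposited table holds FPKM per library, made by the authors, and a signal on a normalized count scale per group, a log2 fold change, a p-value and an adjusted p from the authors. For the aligner, counting tool, strand setting and annotation, the answer is the same: not given in the sources used here. FPKM totals keep no depth, so no counting interval is given.

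Groups were taken from sample titles. log2(FPKM + 1) was fitted with limma 3.58.1 (R 4.3.3; a mean per group, moderated with a trend, two-sided), using the 14304 genes that averaged 1 FPKM or more. P-values were adjusted by Benjamini-Hochberg over all of them, and every adjusted p without another source is from this fit. Exact permutation used scipy 1.17.1, and the limma step was checked on simulated data. Gene positions and exon overlaps come from GENCODE 29, matched by symbol. Differences are shHMGA1 minus shNC.

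The members and gene lists were chosen with earlier results of these data known. Named were all members, HMGA1, other KLF and SP genes, up to 4 called genes per list by size of change (filled to 2 by level), and the 3 genes most like the highest and lowest called member. FOS, DUSP1, SIN3A, SIN3B, MAPK7, COL1A2, DCN, PTPRC, WWP1 and the epithelial markers other than EPCAM and KRT18 are named outside this rule, with their values known, as are the genes for which the text says so. Some list members were not analysed here, and the call of 1 list is not reported here. Alternatives were pseudocounts of 0.1 and 5, no filter, a minimum of 5 FPKM, quantile, median-of-ratios and TPM scaling, removal of mitochondrially encoded genes, a block for the replicate number, robust eBayes, eBayes with no trend, and dropping each library.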

Additional observations from a re-analysis of the deposited data

How the results depend on the processing

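KLF4, KLF9 and KLF13 were called lower under each alternative that tested them, and HMGA1 likewise. The number of members called lower was 4 to 6 under the alternatives that kept all libraries and 3 to 6 with 1 library left out, and none was called higher in any. KLF6 kept its log2 fold change of -1.01 but not its call without a filter (adjusted p = 0.0677, with 31164 genes tested). KLF3 passed with quantile (-0.19) and median-of-ratios scaling (-0.20), and KLF11 without a trend (-0.27, adjusted p = 0.0229). With 1 library left out, log2 fold changes ran from -0.87 to -0.34 for KLF2, -0.50 to -0.33 for KLF5, -1.26 to -0.74 for KLF6, -0.20 to 0.022 for KLF7, -0.0026 to 0.10 for KLF16 and -0.052 to 0.031 for SP1 (0.031 without shNC replicate 2). SP1 also turned with quantile (-0.044) and median-of-ratios scaling (-0.010) and without mitochondrially encoded genes (-0.023). Over all genes, 952 to 1973 were lower and 1138 to 2626 higher with 1 library left out, against 1758 and 2307, and 1478 were higher without a filter. Without a filter more genes share the adjustment, and SEs move too, up for KLF6 (0.23 to 0.25) and down for KLF13 (0.050 to 0.037). The part of each, and the cause of the other changes, was not tested. The minimum of 5 FPKM left KLF7, KLF9, KLF11, KLF12, SP4, SP5, SMAD7 and NR3C1 untested. With 5 FPKM added in place of 1, log2 fold changes shrank to -0.13 for KLF11, -0.17 for KLF12 and SMAD7, -0.21 for NR3C1 and -0.41 for PDGFA. Low level limits SP5 most, then KLF12 and KLF11, among the tested KLF and SP genes.

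Correlations of deviations from the group means were 0.02, -0.04 and 0.04 for same-numbered libraries of the groups. For differently numbered libraries they ran from -0.07 to 0.05. Such correlations over many genes gave no sign of pairing but cannot exclude it, and the labels do not mention it. With the replicate number as a block, 5 members, 1495 genes lower and 1913 genes higher were called, and every member kept its side of the threshold (KLF6 adjusted p = 0.0224, KLF2 0.0723).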

Other observations

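In most immediate early genes and in KLF2 and KLF6, shHMGA1 replicate 3 lay between replicates 1 and 2. It did so in 13 of the 14 immediate early genes and in 6 of the 10 Kruppel-like factors, where 45.2% of all genes tested had replicate 3 between the others. FOSB, an AP-1 subunit, was at 79.5, 3.79 and 40.2 FPKM in shHMGA1 replicates 1 to 3, against 77.8 to 84.9 FPKM in shNC, and JUN at 66.3, 7.44 and 37.9 FPKM, against 53.0 to 54.6 FPKM in shNC. MYC and FOSL1 were the immediate early genes highest in replicate 2, MYC with 91.6, 135 and 109 FPKM in shHMGA1 and 98.8 to 103 FPKM in shNC. These genes were named after their values were seen, and no cause was tested.

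COL3A1, a fibrillar collagen on the list of fibroblast markers, was at 0.95, 0.81 and 0.91 FPKM in shHMGA1, against 0.17 to 0.18 FPKM in shNC, while COL1A2 did not exceed 0.01 FPKM in any library. It lay below the level at which genes were tested.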
